A study of Bos taurus with 8 samples.

Results

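The miR-17, miR-18 and miR-19 seed families were followed in rumen fluid through 10 mature bovine miRNAs, chosen by name from 565 listed entries. The miR-17 family holds 6 of them (bta-miR-17-5p, bta-miR-20a, bta-miR-20b, bta-miR-93, bta-miR-106a and bta-miR-106b), the miR-18 family 2 (bta-miR-18a and bta-miR-18b) and the miR-19 family 2 (bta-miR-19a and bta-miR-19b). The fluid came from 4 non-lactating, ruminally cannulated adult Holstein cows, first on a forage diet (0% concentrate) and then, after a step-wise change, on a high-grain (HG) diet with 65% concentrate, on the day that share was reached. Each cow gave 1 library per diet, so that there were 4 forage and 4 HG libraries, and the diet was the only treatment. Fluid drawn from the ventral sac holds shed host cells, feed and microbes together, and a lower level of a miRNA cannot be told apart into fewer cells of a type and less RNA per cell.

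A miRNA chooses its target mRNAs mainly through its seed, a short run of bases near the 5′ end, so that members of 1 seed family share most targets even when they come from different genes. The members are made as parts of 3 long primary transcripts, each of which is cut into several hairpins: the miR-17-92 cluster, its paralogue the miR-106a-363 cluster, and the miR-106b-25 cluster in the gene of the replication helicase subunit MCM7. In mammals these clusters are known for promoting proliferation and survival, with the miR-17 family acting on the cell cycle inhibitor CDKN1A and on E2F1, and miR-18a on the matricellular protein CCN2. They are active in dividing progenitors, in lymphocytes and in many epithelia.

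In the deposited coordinates of the UMD3.1 assembly, miR-17-5p, miR-18a, miR-19a and miR-20a lay on the plus strand of chromosome 12, at 66226567 to 66226590, 66226702 to 66226723, 66226884 to 66226906 and 66227012 to 66227034. The cluster spanned 757 bases up to the end of miR-92a, and RefSeq names (assembly ARS-UCD2.0, which matched 10 of 10 members) place it between LOC101907906 and GPC5 and inside no other gene. MiR-106a, miR-18b and miR-20b lay on the minus strand of chromosome X, at 17918539 to 17918560, 17918375 to 17918396 and 17918138 to 17918159, beside CCDC160, in a cluster of 809 bases that ends with miR-363. MiR-106b and miR-93 lay on the plus strand of chromosome 25, at 36892057 to 36892077 and 36892259 to 36892280, within MCM7. Their cluster spanned 465 bases up to the end of miR-25, which has another seed. MiR-19b has a copy in both of the first clusters. Its reads were placed on chromosome X at 17918063 to 17918085 in 7 libraries and on chromosome 12 at 66227186 to 66227208 in HG replicate 1, so that its cluster of origin cannot be read from these tables.

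The libraries held 300116 to 522804 miRNA reads. Of all reads, miRNA reads made up 17.4% ± 9.27 (SD, n = 4) on forage and 13.7% ± 9.41 (SD, n = 4) on HG. HG replicate 2 stood apart from the other 7 libraries. Its summed erythrocyte markers (3 of 3 listed, led by bta-miR-451) reached 149756 RPM (reads scaled to a total of 1000000 miRNA reads in the library), against 198457 to 206066 in the others, and its leukocyte markers (6 of 6 listed) 18655 against 22587 to 23323. Its epithelial markers (7 of 8 listed, bta-miR-203 not listed) reached 31200.1 RPM against 22054 to 22803, its stroma and smooth muscle markers (7 of 7) 91342 against 65822 to 70814, and its striated muscle markers (4 of 4) 4649.7 against 6162 to 7362. Family shares and fold changes are therefore also given without it. The diet test without it also drops the cow block, because it leaves 1 cow with forage only.

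The families contributed 51566 reads, 1.60% of the miRNA reads, when a read is counted in full at each entry it maps to, so that a read can count for more than 1 member. With each read divided among its entries they contributed 31221 reads, or 0.970%. Of the families' reads counted in full, the miR-17 family held 89.9% ± 0.514 on forage and 89.6% ± 1.41 on HG, the miR-19 family 7.85% ± 0.236 and 8.43% ± 1.34, and the miR-18 family 2.28% ± 0.301 and 1.96% ± 0.110 (SD, n = 4 each). Without HG replicate 2, the HG values were 90.3% ± 0.303, 7.76% ± 0.225 and 1.93% ± 0.112 (n = 3), so that the miR-17 and miR-19 families then lay on the other side of their forage means. Most reads belonged to the pair from the MCM7 cluster. Bta-miR-93, with 26870 reads, made up 52.1% of the families' reads, and bta-miR-106b, with 12656 reads, 24.5%. In divided reads these shares were 43.0% and 40.5%, and those of the miR-17, miR-19 and miR-18 families 94.3%, 4.00% and 1.70%. Among bovine entries, bta-miR-93 and bta-miR-106b stood at places 28 and 43 by reads counted in full, and at places 29 and 31 by divided reads. Then followed 3 members with nearly equal totals: bta-miR-17-5p with 3379, bta-miR-19b with 3343 and bta-miR-20a with 3318 reads. Their order was not stable, since bta-miR-17-5p exceeded bta-miR-19b in 4 of 8 libraries, and bta-miR-19b exceeded bta-miR-20a in 5 and fell below it in 2. Bta-miR-18a had 1061 reads and bta-miR-19a 811, with bta-miR-18a ahead in 7 of 8 libraries. The members found only on chromosome X were rare: bta-miR-106a had 88 reads, bta-miR-18b 36 and bta-miR-20b 4.

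**Figure D1:**
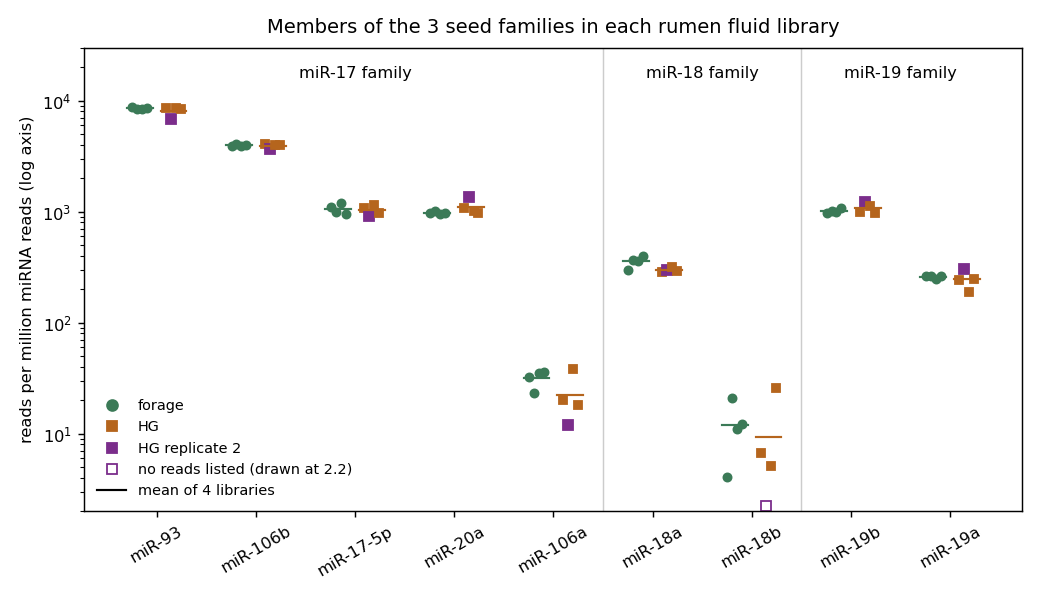
Level of 9 members in each rumen fluid library, in RPM on a log axis. Circles are the 4 forage libraries, squares the 4 HG libraries with HG replicate 2 in purple, and short lines are means. Bta-miR-93 lies highest, at 8529 RPM on forage, and the members found only on chromosome X lowest.

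The way reads were counted sets part of this order. A read that maps to several entries counted once at every one of these, and the references held human as well as bovine names. Bta-miR-93, bta-miR-20a and bta-miR-19a each had a human entry with identical counts in every library, and a read of theirs was shared by 2.0 entries on average. Bta-miR-106b shared its reads with no other entry (1.0 entry per read). The ratio of bta-miR-93 to bta-miR-106b over all libraries was 2.12 in reads counted in full. In divided reads, where each read is split among its entries, the totals were 13435 and 12656. This near-equality arises because the rest of the bta-miR-93 reads went to its human entry, hsa-miR-93-5p, while bta-miR-106b had no such entry. A bta-miR-19b read was divided by 3.96 on average, which put its divided total at 843.3 and moved it behind bta-miR-20a. The only listed entry with the same counts was its human name, hsa-miR-19b-3p, and miR-19b has copies on chromosomes 12 and X. What else the divisor counts cannot be read from these tables. Bta-miR-17-5p reads were shared by 2.02 entries although no other entry had the same counts.

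Of the rare members found only on chromosome X, bta-miR-18b and bta-miR-106a shared their reads with other entries. The divided count of bta-miR-18a equalled, within 0.01 and in 8 of 8 libraries, the value obtained if every bta-miR-18b read was also a bta-miR-18a read. HG replicate 2, with 0 bta-miR-18b reads, could not have differed from it. Bta-miR-18b reads were shared by 4.00 entries and bta-miR-106a reads by 4.37. The 88 reads of bta-miR-106a came from only 1 to 4 different read sequences per library. Bta-miR-20b, with 1.0 entry per read, had 2 reads in forage replicate 4 and 2 in HG replicate 4 and was not listed in the other libraries. The tables list no entry with fewer than 2 reads, and therefore no upper limit was set for an unlisted member.

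**Figure D2:**
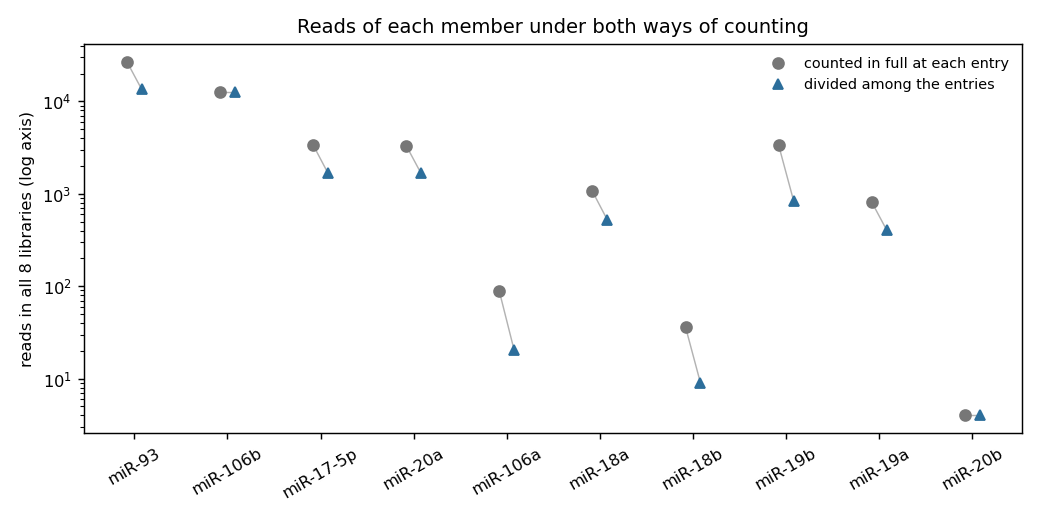
Total reads of each of the 10 members over all 8 libraries, on a log axis, counted in full at each entry (circles) and divided among the entries a read maps to (triangles). Bta-miR-93 falls from 26870 to 13435, because its reads are split with its human entry, and so nearly meets bta-miR-106b, which keeps its 12656 reads.

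The first comparison asked whether the families differed between the diets. No member did so by the edgeR quasi-likelihood test with cow as a block. Of the 377 entries that reached 10 reads in any library, 0 were called at an adjusted p under 0.05 (0%), and 9 had an unadjusted p under 0.05 (2.39%), none of them a member. DESeq2 gave 3 entries with an unadjusted p under 0.05. Of the members, 9 entered the test and bta-miR-20b did not. Their median log2 fold change, HG over forage, was -0.03 and that of all entries 0.03. Without HG replicate 2 and without the block, 16 of 371 entries had an unadjusted p under 0.05 (4.31%), 1 of them a member, bta-miR-18a, and the members' median was -0.01. The miR-17 family made up 1.45% ± 0.0119 of miRNA reads on forage and 1.42% ± 0.0967 on HG, or 1.46% ± 0.0238 (n = 3) without HG replicate 2. The miR-19 family made up 0.127% ± 0.00435 and 0.132% ± 0.0134, or 0.126% ± 0.00482 (n = 3) without that library. For both families the side of the forage mean turned without it. The miR-18 family made up 0.0369% ± 0.00490 and 0.0308% ± 0.00149, or 0.0312% ± 0.00161 (n = 3) without HG replicate 2, and it was lower on HG in 4 of 4 cows (SD, n = 4 where not given).

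In the miR-17 family, bta-miR-93 had 8706, 8435, 8354 and 8621 RPM in forage replicates 1 to 4 and 8553, 6806, 8591 and 8439 in HG replicates 1 to 4. All libraries but HG replicate 2 thus lay within a narrow band, and the diets overlapped. Its fold change on the log2 scale was -0.03 (SE 0.04; adjusted p = 0.830), with a 95% interval from -0.14 to 0.08, and without HG replicate 2 the interval ran from -0.05 to 0.04. Bta-miR-106b, made from the same transcript, had 3871, 4101, 3868 and 3947 RPM on forage and 4055, 3653, 3961 and 3947 on HG. Its log2 fold change was 0.03 (SE 0.05; adjusted p = 0.830), with an interval from -0.08 to 0.15. The side of its HG mean turned with the scaling, through HG replicate 2. RPM averaged 3947 ± 109 on forage and 3904 ± 174 on HG, or 3988 ± 58.5 (n = 3) without that library. Under the TMM scaling of the test the means were 2561 ± 84.7 and 2621 ± 80.0 counts per 1000000 (SD, n = 4 where not given). Bta-miR-106b was higher on HG in 3 of 4 cows in RPM, with nearly equal values in cow 4, and in 4 of 4 under TMM scaling. The share of all entries that did so under TMM scaling was not determined. The log2 fold change was 0.01 (SE 0.03) without HG replicate 2. On the linear scale these intervals allow a fold of 0.906 to 1.06 for bta-miR-93 and of 0.944 to 1.11 for bta-miR-106b.

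Bta-miR-17-5p, after which its family is named, had 1109, 989, 1188 and 958 RPM on forage and 1073, 904, 1154 and 971 on HG. Both diets covered much the same range, and its log2 fold change was -0.00 (SE 0.07; adjusted p = 0.996), or -0.01 (SE 0.08) without HG replicate 2. Bta-miR-20a, its cluster mate with the same seed, had 977, 1008, 960 and 970 RPM on forage and 1079.6, 1357, 1001 and 971 on HG. It was higher on HG in 4 of 4 cows, as were 26 of the 377 entries (6.90%), but in cow 4 the values were nearly equal. Its log2 fold change was 0.21 (SE 0.12; adjusted p = 0.788) and dropped to 0.04 (SE 0.06) without HG replicate 2. Bta-miR-106a, with 12 to 16 reads per forage library and 4 to 15 per HG library, had a log2 fold change of -0.52 and an interval from -1.39 to 0.35, and of -0.28 (-1.13 to 0.56) without HG replicate 2 and the block. It was below 0 under every alternative run, from -0.85 in divided reads to -0.28, and was called under none.

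In the miR-18 family, bta-miR-18a had 295, 369, 362 and 401 RPM on forage and 287, 297, 317 and 294 on HG. It was lower on HG in 4 of 4 cows, as were 33 of the 377 entries (8.75%). The diets overlapped through forage replicate 1, which lay among the HG libraries. Its log2 fold change was -0.20 (SE 0.11), with an unadjusted p of 0.113 and an adjusted p of 0.788. Without HG replicate 2 and without the cow block it was -0.25 (SE 0.11), with an interval from -0.49 to -0.01, an unadjusted p of 0.0458 and an adjusted p of 0.824. With the block, it was -0.23 without replicate 2 (unadjusted p = 0.0543) and -0.13 without replicate 4 (unadjusted p = 0.382). Bta-miR-18b had 2, 11, 5 and 4 reads on forage and 2, 0, 2 and 10 on HG. Its log2 fold change of -0.47 was -0.29 without the block, 0.07 without the block and HG replicate 2, and 0.38 with the block and without replicate 2, so that its direction was not stable.

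In the miR-19 family, bta-miR-19b had 977, 1012, 993 and 1067 RPM on forage and 993, 1208, 1126 and 979 on HG. HG replicates 2 and 3 lay above all forage libraries and the other two HG libraries within the forage range, and the log2 fold change was 0.14 (SE 0.11; adjusted p = 0.788), or 0.03 (SE 0.07) without HG replicate 2. Bta-miR-19a had 261, 262, 248 and 265 RPM on forage, an SD of 7.7 around 259, and 243, 306, 187 and 245 on HG. The forage libraries, with 129, 137, 113 and 88 reads, were closer together than counting error alone would give, with 0.0991 times its variance. The HG libraries, with 73, 103, 73 and 95 reads, spread to both sides of them. This difference in spread was not tested. The log2 fold change of bta-miR-19a was -0.04 (SE 0.16; adjusted p = 0.924), and -0.22 (SE 0.11; adjusted p = 0.824) without HG replicate 2, which had been its highest library. With the block and without replicate 3 it was 0.07, so that its direction was not stable.

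The 4 listed partners of another seed or arm in the same clusters were bta-miR-25 and bta-miR-92a (seed of the miR-25 and miR-92 family), bta-miR-363 (of the same seed) and bta-miR-17-3p, the opposite arm of the miR-17 hairpin. None passed the test. The log2 fold changes were -0.03 (SE 0.04) for bta-miR-25, -0.01 (SE 0.03) for bta-miR-92a, -0.19 (SE 0.26) for bta-miR-363 and 0.24 (SE 0.49) for bta-miR-17-3p. Without HG replicate 2 they were -0.02 for bta-miR-25, -0.02 for bta-miR-92a, -0.12 for bta-miR-363 and 0.06 for bta-miR-17-3p. Bta-miR-92a had 74618 reads and bta-miR-25 65632, each more than the 51566 of all members together when reads are counted in full. In divided reads the members summed to 31221, above bta-miR-92a with 19353 and below bta-miR-25 with 32816. Bta-miR-17-3p had 54 reads against 3379 of the 5′ arm. The opposite arms of bta-miR-93, bta-miR-20a and bta-miR-106b were not listed under bovine names. Under human names, the 3′ arm of miR-18a had 133 reads and that of miR-20a 12.

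**Figure D3:**
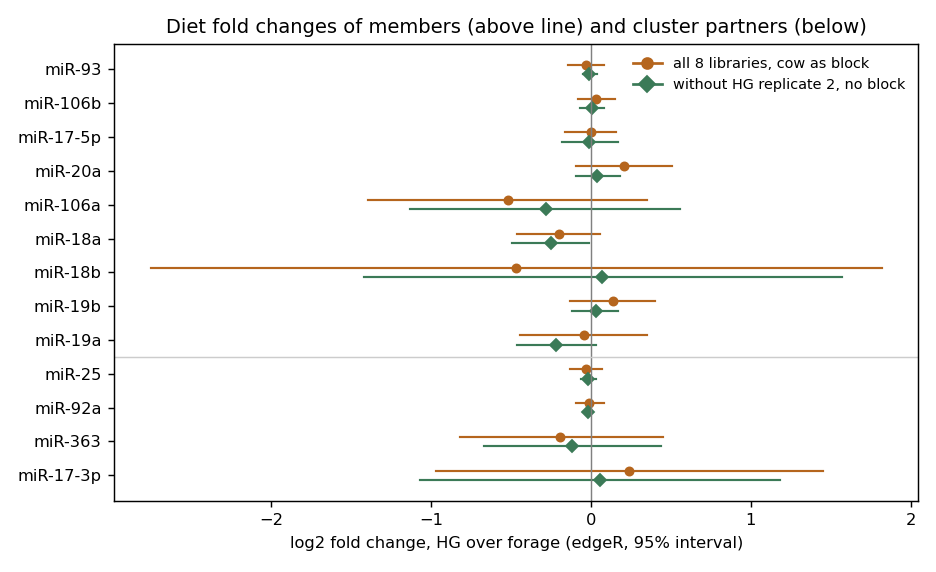
Log2 fold change of HG over forage by edgeR, with 95% intervals, for 9 members (above the grey line) and 4 cluster partners (below it). Circles are from all 8 libraries with cow as a block, and diamonds from the 7 libraries without HG replicate 2 and without the block. Every circle's interval covers 0, and of the diamonds that of bta-miR-18a does not.

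The second comparison asked whether the cows differed. By the edgeR test of the cow terms, 0 of 377 entries were called at an adjusted p under 0.05 (0%), and 9 had an unadjusted p under 0.05 (2.39%), none of them a member, while DESeq2 gave 6 entries with an unadjusted p under 0.05. The unadjusted p-values of the members ran from 0.104 for bta-miR-17-5p to 0.691, all with an adjusted p of 0.901.

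The members differed in how far they varied between libraries, for most of those given here by about as much as counting error allows. Over the 7 libraries other than HG replicate 2, the coefficient of variation of RPM was 1.45% for bta-miR-93 and 2.2% for bta-miR-106b, 5.42% for bta-miR-19b and 11% for bta-miR-19a, and 13.5% for bta-miR-18a. Of the pair with nearly equal reads, bta-miR-17-5p had 8.68% and bta-miR-20a 4.11%, and on forage alone their SD was 107 and 20.6 RPM around means of 1061 and 979. Lower counts alone raise this measure. Counting error alone would give 1.69% for bta-miR-93, 2.47% for bta-miR-106b and 4.95% for bta-miR-20a, each above the value seen. For bta-miR-19b it would give 4.88% and for bta-miR-19a 9.94%, slightly below the values seen. For bta-miR-17-5p it would give 4.77% and for bta-miR-18a 8.53%, well below them. Reads were not corrected for PCR copies, and the difference in spread was not tested.

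HG replicate 2 lay above the other libraries for some members and below them for others, in shares near those of all entries. In RPM it lay above all 7 other libraries for bta-miR-20a, bta-miR-19a and bta-miR-19b, and below them for bta-miR-93, bta-miR-106b, bta-miR-17-5p, bta-miR-106a and bta-miR-18b. These were 3 and 5 of the 9 members tested, and over all 377 entries it lay above the others for 101 (26.8%) and below them for 186 (49.3%). Under TMM scaling these counts were 134 and 115 entries with 4 and 3 members, and under median-of-ratios scaling 130 and 121 entries with 3 and 3 members. Its RPM was 1.36 times the mean of the others for bta-miR-20a, 1.25 times for bta-miR-19a and 1.18 times for bta-miR-19b. It was 0.798 times that mean for bta-miR-93 and 0.921 times for bta-miR-106b. RPM also shifted the median of all entries in this library by -0.21 on the log2 scale, against -0.01 under TMM scaling and -0.03 under median-of-ratios scaling. Under both of these, the places of bta-miR-20a, bta-miR-19a, bta-miR-19b, bta-miR-93, bta-miR-106a and bta-miR-18b were as in RPM. Bta-miR-17-5p then lay within the range of the others, and bta-miR-106b lay above them under TMM and within their range under median-of-ratios. The erythrocyte and leukocyte marker sums of this library were low and its epithelial and smooth muscle sums high, as given above. Single markers did not all move with their sum. HG replicate 2 lay below all other libraries for 3 of 3 erythrocyte markers, 4 of 6 leukocyte markers and 2 of 4 striated muscle markers, and above them for 5 of 7 epithelial and 5 of 7 stroma and smooth muscle markers. It lay above them for the leukocyte markers bta-miR-142-3p (1238 RPM) and bta-miR-146a (1455 RPM) and below them for the epithelial bta-miR-200b (1892 RPM). The part of these cells in the members' levels was not tested.

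**Figure D4:**
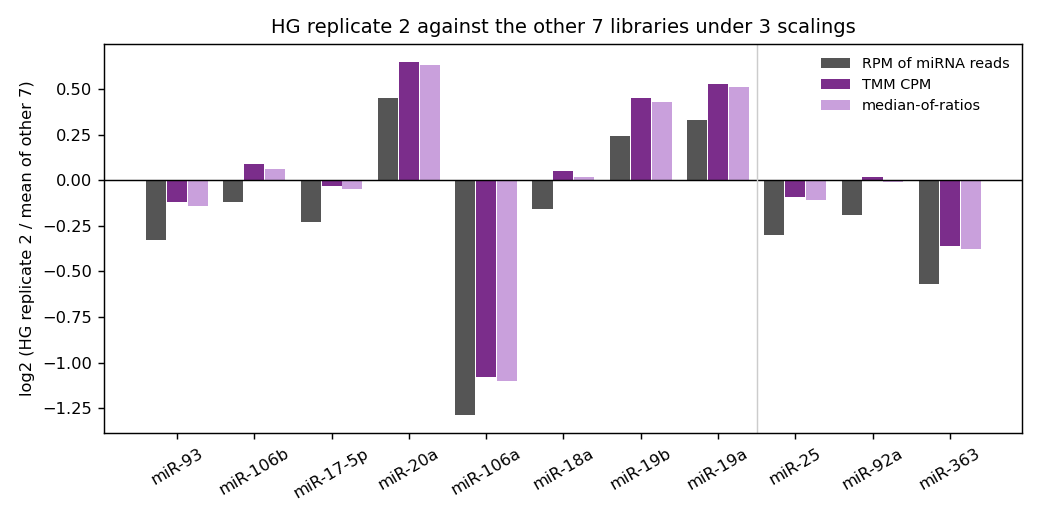
Level of HG replicate 2 over the mean of the other 7 libraries, on the log2 scale, for 8 members (left of the grey line) and 3 cluster partners, under 3 scalings of library size. Bta-miR-20a, bta-miR-19b and bta-miR-19a are above 0 and bta-miR-93 and bta-miR-106a below 0 under each scaling, while bta-miR-106b, bta-miR-18a and bta-miR-92a change side.

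Ratios between members of 1 library do not depend on the scaling. The ratio of bta-miR-20a to bta-miR-17-5p, which share a seed and a cluster, was 0.881, 1.02, 0.808 and 1.01 in forage replicates 1 to 4 and 1.01, 1.5, 0.867 and 1.0 in HG replicates 1 to 4. The value of HG replicate 2 had a 95% Wilson interval from 1.3 to 1.73, above the 0.808 to 1.02 of the other libraries (intervals cover counting error only, and PCR copies were not told apart). The ratio of bta-miR-19b to bta-miR-17-5p was also highest in HG replicate 2, at 1.34 (1.15 to 1.55) against 0.836 to 1.11 elsewhere. Here, however, the interval overlapped those of other libraries, such as forage replicate 4 (0.957 to 1.30). The ratio of bta-miR-92a to bta-miR-17-5p, by contrast, was 22.8 in HG replicate 2, within the 20 to 24.8 of the other libraries. MiR-92a, like miR-19b, has a further gene copy on chromosome X (MIR92A-2, beside MIR363). Its cluster of origin was therefore not settled either. In the MCM7 cluster, the ratio of bta-miR-93 to bta-miR-106b was 1.86 (1.74 to 2.0) in HG replicate 2 and 2.06 to 2.25 elsewhere. The ratio of bta-miR-25 to bta-miR-93 was 2.49 there and 2.35 to 2.5 elsewhere. In divided reads the ratio of bta-miR-20a to bta-miR-17-5p was 1.51 in HG replicate 2, against 0.818 to 1.03 elsewhere.

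The ratio of bta-miR-18a to bta-miR-20a, neighbours in 1 cluster with different seeds, was 0.302, 0.366, 0.377 and 0.413 on forage and 0.265, 0.219, 0.317 and 0.302 on HG. It was lower in 4 of 4 cows, which follows from bta-miR-18a being lower and bta-miR-20a higher in each and adds nothing to those counts. The mean fell from 0.365 ± 0.0461 to 0.276 ± 0.0436 (SD, n = 4 each), or to 0.295 ± 0.0266 (n = 3) without HG replicate 2. Forage replicate 1 overlapped the HG libraries, and the ratio was not tested, because it was chosen after its values were seen. The ratio of bta-miR-18a to bta-miR-17-5p was 0.266, 0.373, 0.304 and 0.418 on forage and 0.267, 0.329, 0.275 and 0.302 on HG, not lower in cow 1. Within the miR-19 family the ratio of bta-miR-19a to bta-miR-19b was 0.245 to 0.267 in 7 libraries and 0.166 (0.130 to 0.212) in HG replicate 3.

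**Figure D5:**
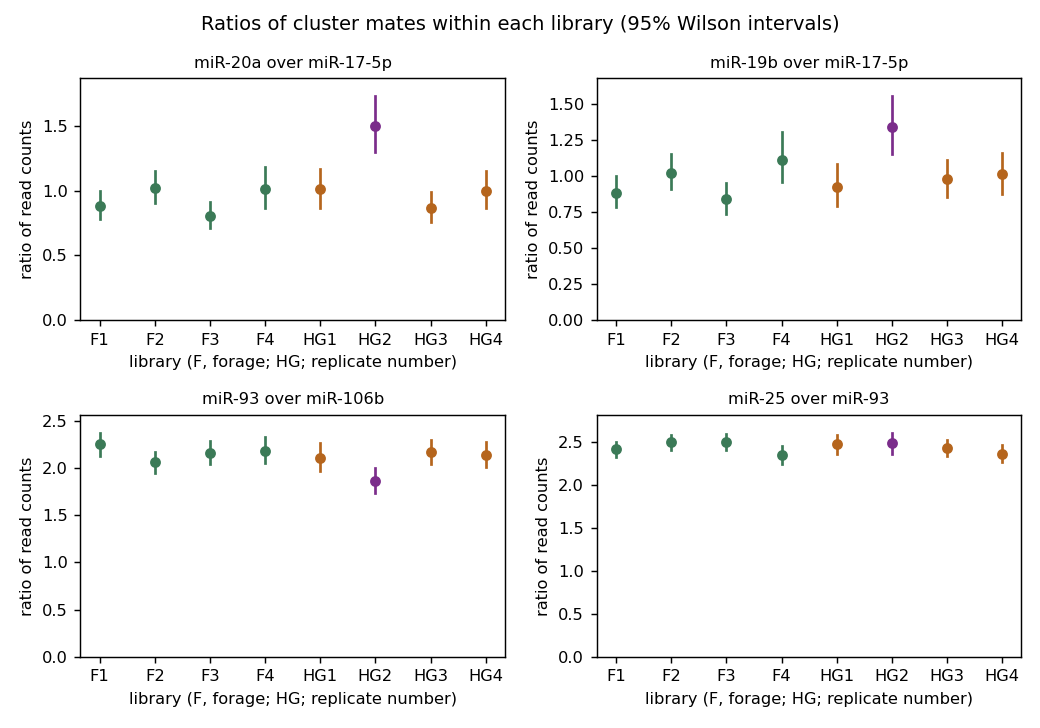
Ratio of read counts of 4 pairs of cluster mates in each library, with 95% Wilson intervals, for forage (F1 to F4) and HG (HG1 to HG4) replicates. In HG replicate 2 (purple) bta-miR-20a over bta-miR-17-5p reaches 1.5 and bta-miR-93 over bta-miR-106b falls to 1.86, while bta-miR-25 over bta-miR-93 stays at 2.49.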

How the data were processed

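Small RNA of rumen fluid was sequenced in 8 libraries, 4 per diet. The authors trimmed adapters with Skewer, discarded short and low-quality reads and assigned the rest with sRNAbench and Bowtie, allowing mismatches, to genome UMD3.1 and to bovine and human miRBase entries. Per the submitters' processing notes, bcl2fastq 2.20 and DESeq2 were used. The deposited tables give a read count per entry, with a read counted in full at each entry it maps to, and an expected count, in which it is divided among them. The deposited RPM is relative to all reads, and a further deposited score is relative to miRNA reads. Both were used here to recover library totals. A deposited normalized signal, which holds 377 entries, was checked against the count minimum, which keeps the same 377, and was not tested.

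Entries that reached 10 reads in any library were tested on their read counts with edgeR 4.0.16 (R 4.3.3, TMM, glmQLFit and glmQLFTest, two-sided), with cow and diet in the model, Benjamini-Hochberg adjustment over 377 entries and a threshold of 0.05. Standard errors were taken as the absolute log2 fold change over the square root of F, and intervals from the t distribution. The script was tested on simulated data. RPM in the text is relative to miRNA reads. Alternatives were DESeq2 1.42.0, its size factors, no count minimum, expected counts rounded to whole reads, no block, and leaving out each replicate. Tests without HG replicate 2 alone and of bovine entries only were added after seeing the data. Tables and figures used Python 3.11.15, numpy 2.4.6, pandas 2.3.3, scipy 1.17.1 and matplotlib 3.10.9.

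Same-numbered libraries were treated as 1 cow, since the same cows were sampled on both diets and the labels number them alike. The pairing rests on this, because their deviations from the diet means correlated at only 0.00, -0.06, 0.07 and 0.01. All 10 members and the cluster partners were named by rule, and the members and lists were chosen with earlier results of these data known. Mature sequences are not printed, as no table of them was used here. Papillae libraries and bacterial sequences were not analysed here.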

Additional observations from a re-analysis of the deposited data

Results flagged for a closer look

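Of 36 groups of 4 libraries examined for a member's level, a family's share or a ratio, 2 held a library far from the other 3 by Dixon's criterion at the 95% level, and chance alone marks about 1 group in 20. The level of bta-miR-93 in HG replicate 2 was 6806 RPM, against 8439 to 8591 in the other HG libraries. The ratio of bta-miR-19a to bta-miR-19b in HG replicate 3 was 0.166, against 0.245 to 0.254 in the other HG libraries.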

How the results depend on the processing

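The replicate block changed no call of a member, and with no replicate block 0 entries were called between the diets. Under the alternatives of the diet test, no member was called, and 94 of 99 fold changes kept their direction. The exceptions were bta-miR-17-5p, at -0.03 to 0.01 when each replicate was left out (0.01 without replicate 1 and 0.01 without replicate 3), bta-miR-19a, at -0.21 (without replicate 2) to 0.07 (without replicate 3), and bta-miR-18b, at -1.41 (without replicate 4) to 0.38 (without replicate 2), and at 0.07 without HG replicate 2 alone and no block. Leaving out 1 replicate gave 0 to 2 entries called between the diets and 0 to 2 between the cows. Both counts of 2 came without replicate 2 and are bta-miR-2285ak-5p and bta-miR-2285bh, with a smallest adjusted p of 0.0281 for the diet and 0.0109 for the cow, and the other alternatives gave none. Divided reads lowered the miR-17 share to 0.923% on forage and 0.902% on HG, the miR-18 share to 0.0178% and 0.0149%, and the miR-19 share to 0.0384% and 0.0394%, and left 8 of 10 members at the same place in the order. Bta-miR-106a and bta-miR-18b had few reads and wide intervals, and bta-miR-20b had too few to be tested.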
